A study of Mus musculus with 8 samples.

Results

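The 6 genes described here encode type 1 effector cytokines of activated lymphocytes: Ifng, Tnf, Il2, Csf2, Lta and Ltb. They were taken by symbol from a table of 25230 genes; all 6 were present, and all 6 were among the 14691 genes with enough counts to be tested. The libraries came from intraepithelial lymphocytes (IELs), lymphocytes lodged within the gut epithelium, isolated from C57BL/6J mice. Exendin-4 (Ex4), a peptide that activates the receptor for the gut hormone GLP-1, was given at 10 nmol/kg to 4 mice, and 4 mice received PBS in its place. All 8 mice, PBS mice included, were also injected intraperitoneally with 35 µg of anti-CD3, an antibody that triggers the T cell receptor complex and so activates T cells. Gut cells were collected 3 h later by Percoll separation and CD45 sorting, a gate that keeps leukocytes in general, so that leukocytes other than T cells could pass the sort. Every library is therefore of activated cells, and how far the antibody itself induced these cytokines was not measured here. The labels number the mice in each group and give no age, sex, litter or batch, so that p-values measure the spread between these libraries.

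Interferon-gamma, encoded by Ifng, raises antigen presentation and antimicrobial genes in the cells around a T cell. TNF (Tnf) and lymphotoxin-alpha (Lta) act on the TNF receptors, and lymphotoxin-beta (Ltb) anchors lymphotoxin-alpha at the membrane in a complex that binds the lymphotoxin-beta receptor. IL-2 (Il2) sustains T cell proliferation, and GM-CSF (Csf2) drives growth and activation of myeloid cells. Engagement of CD3 switches most of these genes on through NFAT, AP-1 and NF-kappaB, and in the gut their release by activated T cells is known to injure the epithelium.

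Of the 6 transcripts, all had a lower mean in Ex4 IELs than in PBS IELs, and none passed the test across all genes. Ltb, Csf2 and Ifng had the lowest log2 fold changes of Ex4 over PBS, at -1.24, -0.96 and -0.69, with an unadjusted p under 0.05 in edgeR's quasi-likelihood test. Tnf, Lta and Il2 had log2 fold changes of -0.24, -0.20 and -0.02. After Benjamini-Hochberg adjustment over all 14691 genes, 0 of 6 were called at 0.05, against 0.0136% of all tested genes (2 genes, Flna and Cd1d1, both higher in Ex4). DESeq2 and limma-voom also called 0 of the 6. An unadjusted p under 0.05 with a lower value in Ex4 was found for 3 of 6 (2 of 6 without PBS replicate 1), against 3.9% of all tested genes; in the higher direction it was 0 of 6, against 3.71%. Groups without overlap were found for 0 of 6 transcripts and for 4.95% of all tested genes, so that 0 of 6 is near the background share. The median log2 fold change was -0.46 over the 6 genes and 0.02 over all tested genes, of which 47.1% lay below 0. Because RNA came from bulk cells, fewer cytokine-producing cells and less cytokine RNA per cell cannot be told apart.

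**Figure D1:**
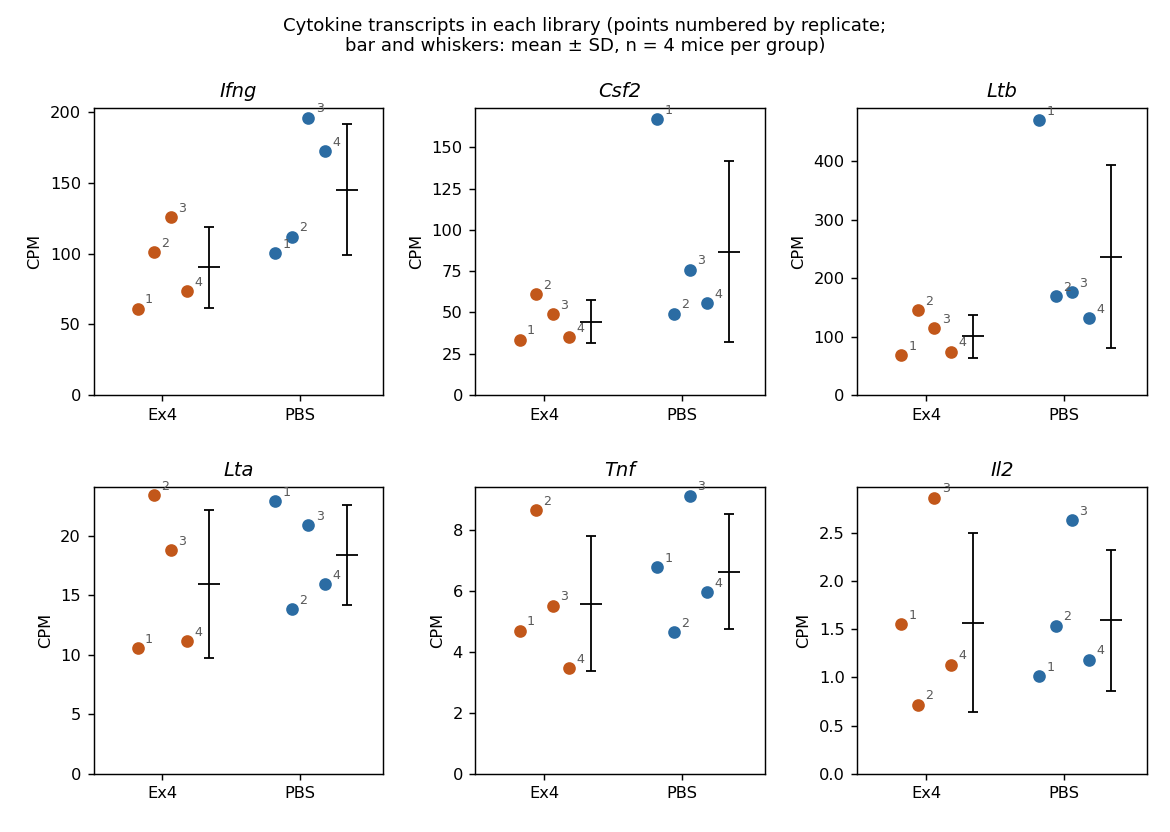
Counts scaled to a common library size (CPM, y axis) of each of the 6 cytokine transcripts in the 4 Ex4 and the 4 PBS libraries (x axis), with the mean ± SD beside the points. PBS replicate 1 stands far above all other libraries for Csf2 and Ltb, at 167 and 470.5 CPM, and the groups overlap in every panel.

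Library totals were 22009510, 26778167, 31843413 and 13386889 counts in Ex4 replicates 1 to 4, and 19477917, 25333644, 19622004 and 18266449 counts in PBS replicates 1 to 4. The shallowest library held between 16 counts (Il2) and 1046 counts (Ltb) of the members, so that counting limited Il2 most, followed by Tnf with 49 counts; the 16 counts of Il2 have an exact Poisson 95% interval of 9.15 to 26.0, which covers counting error only. All 17 markers of IELs fixed for the check, such as Gzma, Cd8a and Itgae, were present in every library, and Cd3e, a chain of the CD3 complex, was at 808 ± 181 CPM in Ex4 and 717 ± 167 CPM in PBS (SD, n = 4 each). Of these markers 0 were called by edgeR and 1 had an unadjusted p under 0.05. This was Cd8a, a chain of the CD8 coreceptor, at 1060.1 ± 116 CPM in Ex4 and 1600.1 ± 322 CPM in PBS without overlap (log2 fold change -0.59, edgeR adjusted p = 0.351), which DESeq2 called (adjusted p = 0.0259). Cd244a and Cd8b1 had log2 fold changes of -0.45 and 0.40. The part of the cell mixture behind Cd8a in the cytokine levels was not tested. Glp1r, which encodes the receptor for exendin-4, was detected at 8.55 ± 3.54 CPM in Ex4 and 6.08 ± 2.05 CPM in PBS. PBS replicate 1 stood apart from the other PBS libraries in its cell markers as well as in Ltb and Csf2. Its summed markers of conventional T cells were the lowest of all 8 libraries (90.9 CPM), its summed markers of NK cells and innate lymphoid cells the highest (406 CPM), and its IEL markers the lowest (56006 CPM). The IEL sum is mostly Gzma and Gzmb, which were lowest in this library at 30614 and 13601 CPM. Cd8a and Cd7 were highest in it, at 2074 and 2513 CPM, so the IEL markers did not all go 1 way. The NK and innate lymphoid sum was high through Klrb1c and Kit, at 102 and 146 CPM, while Rora was lowest in this library at 7.36 CPM. Member values and correlations that this library moves are given with and without it.

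The 6 transcripts differ in a sequence feature that governs how long a cytokine mRNA lasts. Messages of several cytokines carry AU-rich elements in the 3′ UTR, built of repeats of ATTTA in DNA letters, where decay factors such as tristetraprolin (Zfp36) bind. The richest stretch of at most 30 bases is shown for the 5 members that hold such repeats. The number of repeats differs even between the transcripts of the Lta, Tnf and Ltb gene cluster. Capitals mark ATTTA, read 5′ to 3′ on the mRNA strand.
Csf2: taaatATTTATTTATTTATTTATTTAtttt
Tnf: ttATTTAttATTTATTTAttATTTATTTAt
Il2: tATTTATTTAaatATTTAactttaATTTAt
Ifng: cctATTTAttaatATTTAaaactATTTAta
Lta: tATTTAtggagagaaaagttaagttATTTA
These stretches lie at chr11:54247325-54247354 (minus strand), chr17:35199678-35199707 (minus), chr3:37121039-37121068 (minus), chr10:118445332-118445361 (plus) and chr17:35203408-35203437 (minus) of GRCm38, in 3′ UTR exons annotated by GENCODE.

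Counted over the longest annotated 3′ UTR, with overlapping matches counted separately, Csf2 held 9 ATTTA pentamers in 317 bases, a density of 28.4 per kb that 0.0517% of tested genes exceeded. Tnf held 8 in 764 bases, Il2 7 in 581, Ifng 6 in 631 and Lta 3 in 572, and Ltb held 0 in 174. The longer nonamer TTATTTATT, which contains the pentamer, occurred 5 times in Tnf, 4 times in Csf2, once each in Il2 and Lta, and in neither Ifng nor Ltb. Of 13540 tested genes with an annotated 3′ UTR, 7.64% held the nonamer and 66.9% the pentamer, with a median of 1.15 pentamers per kb. Among the 4069 genes with a 3′ UTR of 174 to 764 bases, the range of the members, 2.83% held the nonamer. The transcript without any pentamer, Ltb, and the one with the most per kb, Csf2, had the lowest log2 fold changes of the 6. Whether these elements bear on the levels or on the differences between groups was not tested.

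Ifng (chromosome 10, 118441046 to 118445892, plus strand, GRCm38) was at 61.0, 101, 126 and 73.5 CPM in Ex4 replicates 1 to 4, against 100.3, 112, 196 and 173 CPM in PBS replicates 1 to 4. The lowest 2 libraries were Ex4 and the highest 2 were PBS, while Ex4 replicates 2 and 3 lay among the lower PBS libraries. The means were 90.2 ± 28.9 CPM in Ex4 and 145 ± 46.4 CPM in PBS (SD, n = 4 each). The log2 fold change was -0.69 (SE 0.26, 95% interval -1.25 to -0.12, edgeR adjusted p = 0.554). An exact two-sided permutation test of mean log2 CPM, which cannot go below 0.0286 with 4 libraries a group, gave p = 0.143. With each library left out in turn the log2 fold change lay between -0.91 and -0.54, so no single library set its direction.

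Csf2 (chromosome 11, 54247271 to 54249667, minus strand) was at 33.5, 60.9, 48.8 and 34.9 CPM in Ex4 replicates 1 to 4, against 167, 49.3, 75.8 and 55.5 CPM in PBS replicates 1 to 4. PBS replicate 1 was 2.77-fold the mean of the other PBS libraries, and Ex4 replicate 2 exceeded PBS replicates 2 and 4. Means were 44.5 ± 12.9 CPM in Ex4 and 86.9 ± 54.5 CPM in PBS (SD, n = 4 each), and the log2 fold change was -0.96 (SE 0.40, 95% interval -1.87 to -0.05, edgeR adjusted p = 0.629; exact permutation p = 0.114). Without PBS replicate 1 the PBS mean was 60.2 ± 13.8 CPM (n = 3) and the log2 fold change -0.44, with an unadjusted edgeR p of 0.0556. Il3, the neighbour of Csf2 and another growth factor of myeloid cells, had 0 counts in all 8 libraries, which allows up to 0.103 to 0.212 CPM depending on the library (3 counts).

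Ltb (chromosome 17, 35194439 to 35196320, plus strand) was at 67.8, 145, 114 and 74.0 CPM in Ex4 replicates 1 to 4, against 470.5, 169, 176 and 132 CPM in PBS replicates 1 to 4. Only Ex4 replicate 2 reached into the range of the PBS libraries, lying above PBS replicate 4. Means were 100.2 ± 36.2 CPM in Ex4 and 237 ± 157 CPM in PBS (SD, n = 4 each), with a log2 fold change of -1.24 (SE 0.44, 95% interval -2.26 to -0.22, edgeR adjusted p = 0.556; exact permutation p = 0.0571). Of all tested genes, 0.708% had a lower log2 fold change. PBS replicate 1 was 2.96-fold the mean of the other PBS libraries (159 ± 23.8 CPM, n = 3); without it the log2 fold change was -0.67, with an unadjusted edgeR p of 0.0124 and an adjusted p of 0.693. Ltb is also made by B cells and innate lymphoid cells. The 10 markers of B and plasma cells summed to 278 to 2267 CPM in Ex4 and 877 to 1490 CPM in PBS, and 0 of the 10 had an unadjusted p under 0.05. The 10 markers of NK and innate lymphoid cells summed to 189 to 273 CPM in Ex4 and 190.1 to 406 CPM in PBS, with PBS replicate 1 highest, and 2 of 9 tested had an unadjusted p under 0.05, both higher in Ex4. These were Rora, a transcription factor of innate lymphoid cells that T cells also express, at 38.2 ± 15.3 CPM in Ex4 and 13.9 ± 5.35 CPM in PBS (log2 fold change 1.46, edgeR adjusted p = 0.351, DESeq2 adjusted p = 0.00554), and Il23r, a chain of the IL-23 receptor, with a log2 fold change of 2.06. Il23r was a very low transcript, at 1.28 ± 0.301 CPM in Ex4 and 0.311 ± 0.406 CPM in PBS, with 1 PBS library at 0. Without PBS replicate 1 its log2 fold change was 1.74, with an unadjusted edgeR p of 0.111. Ncr1, a receptor of NK cells, had a log2 fold change of -0.62. Klrb1c and Kit, which made the peak of the sum in PBS replicate 1, had -2.14 and -0.98, and -0.20 and -0.26 without that library. Rora was lowest of all 8 libraries in PBS replicate 1, so these markers did not rise together there. The part of these cells in the level of Ltb was not tested.

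Lta (chromosome 17, 35203165 to 35205351, minus strand) was at 10.5, 23.4, 18.8 and 11.1 CPM in Ex4 replicates 1 to 4, against 22.9, 13.8, 20.8 and 15.9 CPM in PBS replicates 1 to 4. The highest library and the lowest 2 were all Ex4, so the PBS values lay inside the Ex4 range. The log2 fold change was -0.20 (SE 0.27, 95% interval -0.77 to 0.38, edgeR adjusted p = 0.924; exact permutation p = 0.457).

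Tnf (chromosome 17, 35199381 to 35202007, minus strand) was at 4.70, 8.65, 5.52 and 3.47 CPM in Ex4 replicates 1 to 4, against 6.78, 4.65, 9.13 and 5.96 CPM in PBS replicates 1 to 4. The groups were interleaved, with a log2 fold change of -0.24 (SE 0.35, 95% interval -0.98 to 0.50, edgeR adjusted p = 0.929; exact permutation p = 0.429). Il2 (chromosome 3, 37120523 to 37125959, minus strand) was at 1.55, 0.715, 2.86 and 1.13 CPM in Ex4 replicates 1 to 4, against 1.01, 1.54, 2.63 and 1.18 CPM in PBS replicates 1 to 4. Replicate 3 was highest in both groups, and the log2 fold change of -0.02 had a 95% interval of -1.27 to 1.24 (SE 0.59, edgeR adjusted p = 0.997). An interval this wide holds both a lower and a higher level of Il2 in Ex4. The direction of Il2 turned when Ex4 replicate 2 (0.21), Ex4 replicate 4 (0.09) or PBS replicate 3 (0.29) was left out.

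**Figure D2:**
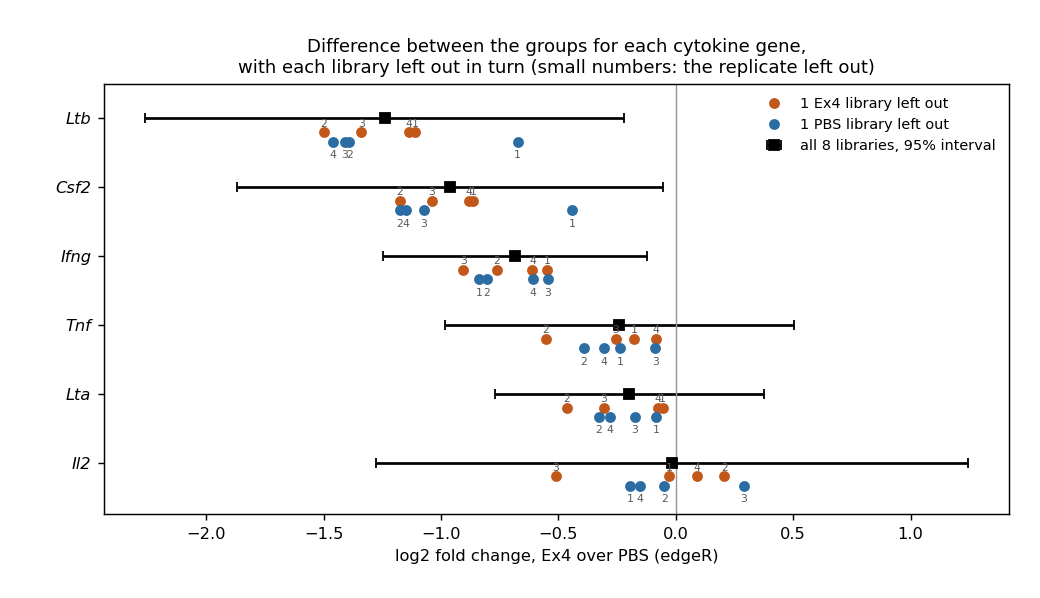
Log2 fold change of Ex4 over PBS (x axis) for each cytokine gene (rows): squares with 95% intervals are from all 8 libraries, and points are from fits with 1 library left out. Leaving out PBS replicate 1 moves Ltb to -0.67 and Csf2 to -0.44, and only Il2 has points on both sides of 0.

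Levels of different genes were set side by side as CPM per kb of exon. In Ex4 IELs the order was Ltb (85.1 ± 30.7 CPM per kb), Ifng (74.7 ± 23.9), Csf2 (55.6 ± 16.2), Lta (11.5 ± 4.50), Tnf (3.41 ± 1.35) and Il2 (1.37 ± 0.813). In PBS IELs the order was the same, with Ltb at 201 ± 133 CPM per kb, Ifng at 120.3 ± 38.4, Csf2 at 109 ± 68.1, Lta at 13.3 ± 3.04, Tnf at 4.05 ± 1.15 and Il2 at 1.39 ± 0.636 (SD, n = 4 each). The ranges of Ltb, Ifng and Csf2 overlapped in both groups, so their order among themselves lies within the spread. Csf2 lay above Lta and Lta above Tnf without overlap in both groups; Tnf and Il2 overlapped in Ex4 but not in PBS. Thus the messages of the classical pair Ifng and Tnf stood far apart in these cells 3 h after the antibody, and Il2 was the least abundant of the 6.

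Ltb, Tnf and Lta lie side by side on chromosome 17 within 10913 bases, with 3060 bases between Ltb and Tnf and 1157 bases between Tnf and Lta. Ltb is read from the plus strand and the other 2 from the minus strand. The closest pair across libraries, described next, was not among these neighbours. The 150 bases before the RefSeq start of these 3 genes and of Csf2 are shown, since the closest pairs lay among these 4 transcripts; capitals mark matches on either strand to GGAAA (the core of NFAT sites), the NF-kappaB pattern (GGG and CC with 5 bases between them) or TATAAA, and some of the matches overlap.
Ltb: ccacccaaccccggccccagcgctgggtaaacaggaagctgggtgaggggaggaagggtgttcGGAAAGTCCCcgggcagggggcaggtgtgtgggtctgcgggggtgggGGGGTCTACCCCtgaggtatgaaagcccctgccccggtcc
Tnf: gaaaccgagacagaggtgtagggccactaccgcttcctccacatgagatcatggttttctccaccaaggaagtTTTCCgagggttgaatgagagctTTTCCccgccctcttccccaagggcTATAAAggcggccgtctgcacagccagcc
Lta: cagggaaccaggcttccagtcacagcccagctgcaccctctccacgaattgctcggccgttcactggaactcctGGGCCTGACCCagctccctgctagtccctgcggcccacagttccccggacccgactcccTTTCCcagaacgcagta
Csf2: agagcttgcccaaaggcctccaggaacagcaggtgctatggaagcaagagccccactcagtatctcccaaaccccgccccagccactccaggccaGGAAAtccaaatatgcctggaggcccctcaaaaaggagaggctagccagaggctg
The windows are chr17:35194357-35194506 (plus), chr17:35202008-35202157 (minus), chr17:35205352-35205501 (minus) and chr11:54249900-54250049 (minus) of GRCm38.p6. The RefSeq start of Csf2 lies 232 bases upstream of the GENCODE gene start and that of Ltb 68 bases downstream of it.

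In the 250 bases searched before the start, all 6 members held GGAAA, which 55.6% of 32851 promoters of that length held. The NF-kappaB pattern was found in Tnf, Il2, Lta and Ltb (45.8% of promoters) and TATAAA in Ifng, Tnf, Il2 and Lta (12.4%). The AP-1 motif TGANTCA (6.75%), the cAMP response element TGACGTCA (1.55%) and the T-box site TCACACCT (1.12%) were found in none of the 6 windows, and the shorter cAMP motif TGACG, which lies within the full element, was found in Ifng alone (17.8%). For Csf2 the 232 bases directly before its GENCODE gene start lay outside the window and were not searched. A motif not found for Csf2 is therefore not shown to be absent near that start. These matches describe letters in the windows and no more.

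Across the 8 libraries the pairs of members differed in how closely they followed each other. Csf2 and Ltb, on different chromosomes, followed each other most closely, with a Pearson r of 0.97 on log2 CPM (exact permutation p = 0.000918, adjusted p = 0.0138 over the 15 pairs) and a Spearman rho of 0.93 (exact p = 0.00223, adjusted p = 0.0335). With PBS replicate 1 and Ex4 replicate 1 left out, the 2 libraries that lie farthest from the Csf2 median, r was 0.85. Ex4 replicates 1 and 4 were the lowest 2 libraries for both genes, and PBS replicate 1 was the highest for both. Within groups, taken as deviations from the group means, r was 0.96. Left out singly, Ex4 replicate 4 and PBS replicate 3 moved the adjusted p to 0.0565 and 0.0516, with r at 0.96 and 0.97.

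Tnf and Lta, neighbours on chromosome 17, had an r of 0.87 (exact permutation p = 0.00578, adjusted p = 0.0433) and a rho of 0.83 (exact p = 0.0154, adjusted p = 0.0769). Without Ex4 replicate 4 and PBS replicate 3, the farthest on Tnf, r was 0.86, and within groups it was 0.86. Csf2 and Lta had an r of 0.79 (exact permutation p = 0.00955, adjusted p = 0.0477) and a rho of 0.86 (exact p = 0.0107, adjusted p = 0.0769), with r at 0.83 without PBS replicate 1 and Ex4 replicate 1. Within groups its r was 0.80, with a permutation p adjusted to 0.0702. That permutation moved deviations across the groups, so its p is only approximate. Both relations stood near the threshold. For Tnf and Lta the adjusted p lay between 0.0357 and 0.183 with 1 library left out, and was above 0.05 when Ex4 replicate 2, 3 or 4 (0.0640, 0.0526, 0.183) or PBS replicate 2, 3 or 4 (0.0826, 0.0516, 0.106) was the library left out. For Csf2 and Lta it lay between 0.0223 and 0.275, and was above 0.05 without Ex4 replicate 1, 3 or 4 (0.228, 0.0526, 0.275) or PBS replicate 2, 3 or 4 (0.0826, 0.0516, 0.107).

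Lta and Ltb, whose products join in 1 complex, had an r of 0.74 (exact permutation p = 0.0263, adjusted p = 0.0987) and a rho of 0.71 (exact p = 0.0576), with an r of 0.77 within groups. It was 0.40 without Ex4 replicates 1 and 4, the libraries lowest in Lta, and 0.66 and 0.67 with either of them left out alone. Ifng had r between 0.38 and 0.61 with the other 5 members, the highest with Tnf (exact permutation p = 0.110, adjusted p = 0.276), and Il2 had r between -0.17 and 0.39. PBS replicate 1 moved several of these values. Without it Ifng had an r of 0.88 with Csf2 (0.38 with it; exact permutation p = 0.0147, adjusted p = 0.0440) and of 0.81 with Ltb (0.39 with it; adjusted exact p = 0.0833). Tnf and Csf2 had an r of 0.89 without it and 0.62 with it (adjusted exact p = 0.0417 without it). Il2 then had r of 0.15 with Csf2 and 0.13 with Ltb, both -0.17 with it. Over all 15 pairs r was positive in 12, with a median of 0.55, and without PBS replicate 1 it was positive in 15, with a median of 0.69. By Pearson r 3 of 15 pairs passed an adjusted p of 0.05, and by Spearman rho 1 of 15; without PBS replicate 1 these were 5 and 0. The points share library depth and composition, since every library gives 1 point to each pair.

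**Figure D3:**
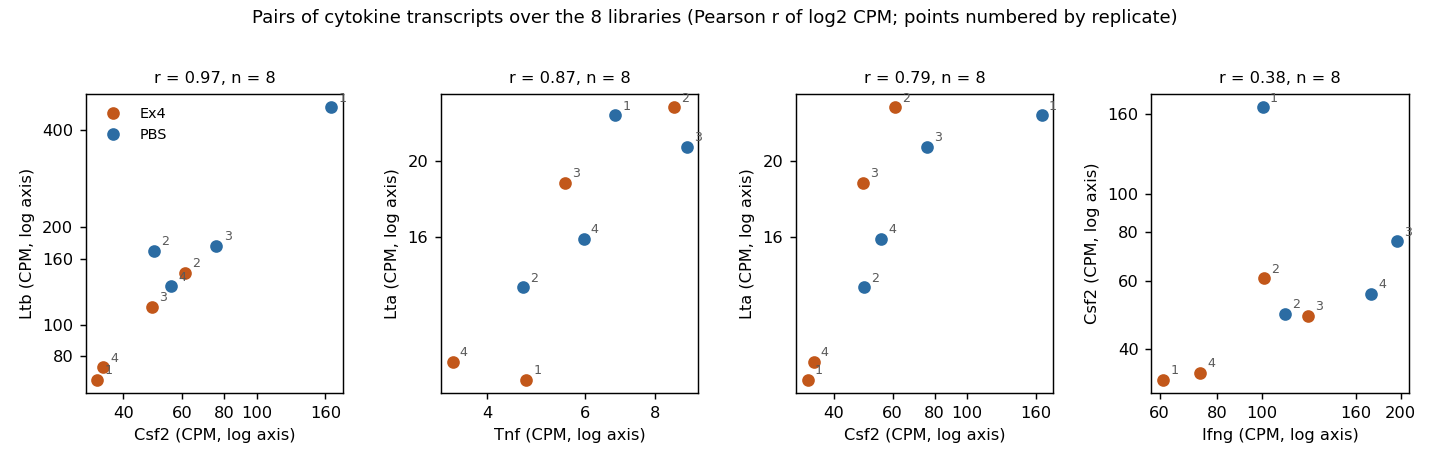
CPM of pairs of cytokine transcripts in the 8 libraries on log axes, with Ex4 and PBS libraries in different colours and numbered by replicate. Csf2 and Ltb lie along a line (r = 0.97) that runs up to PBS replicate 1, whereas Ifng and Csf2 (r = 0.38) diverge at the same library.

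Ratios between members within a library do not depend on how libraries are scaled. The ratio of Ltb to Lta, per kb of exon, was 7.55, 7.27, 7.13 and 7.82 in Ex4 replicates 1 to 4, against 24.2, 14.4, 9.90 and 9.72 in PBS replicates 1 to 4. The Ex4 libraries lay close together and all below the PBS libraries, although the level of Lta in Ex4 spanned the whole PBS range. The mean log2 ratio was 2.90 in Ex4 and 3.76 in PBS, a difference of -0.86 (exact permutation p = 0.0286, the smallest this design can give; adjusted p = 0.214 over the 15 ratios). The ratio of Csf2 to Lta was 5.49, 4.50, 4.49 and 5.43 in Ex4, against 12.6, 6.17, 6.29 and 6.03 in PBS, again without overlap (log2 difference -0.57, exact permutation p = 0.0286, adjusted p = 0.214). Without PBS replicate 1 the differences were -0.58 for Ltb to Lta and -0.31 for Csf2 to Lta, both still without overlap (exact permutation p = 0.0286 for Ltb to Lta and 0.0571 for Csf2 to Lta). The other 13 ratios overlapped between the groups, among them Tnf to Lta and Ltb to Csf2. Ltb and Csf2 thus lay lower relative to Lta in every Ex4 library than in any PBS library, a pattern picked out after all 15 ratios had been seen, and neither passed the adjusted threshold.

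**Figure D4:**
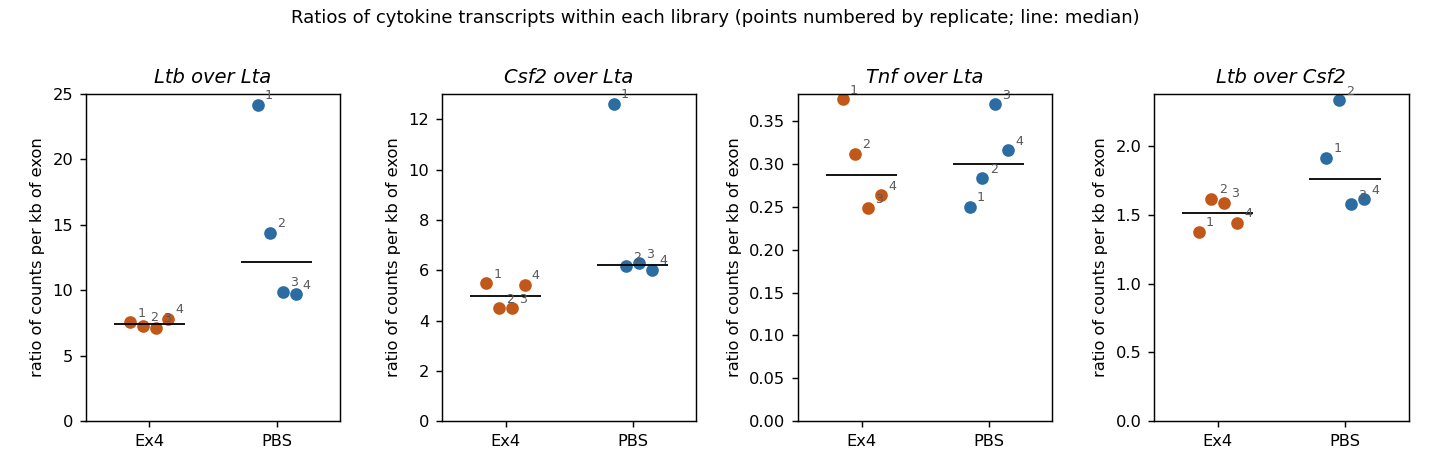
Ratio of counts per kb of exon (y axis) for 4 pairs of cytokine transcripts in the 4 Ex4 and 4 PBS libraries (x axis), with the median as a line. The Ltb to Lta ratio lies between 7.13 and 7.82 in Ex4 and between 9.72 and 24.2 in PBS, while the Tnf to Lta and Ltb to Csf2 ratios overlap.

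The transcripts most alike to each member were taken as those with the highest Pearson r of log2 CPM over the 8 libraries, among 10998 expressed genes (10999 for Il2), as a description with no test. For Csf2 they were Nrros (0.99), Taf6l (0.98) and Aak1 (0.98), and for Ltb they were Adh1 (0.98), Ptpn6 (0.98), which encodes the phosphatase SHP-1, and Zfp263 (0.98). Ltb ranked 6 among the genes most alike to Csf2, and Csf2 ranked 9 among those most alike to Ltb. All 6 of these genes had their highest level in PBS replicate 1, from 15.3 CPM for Taf6l to 410.2 CPM for Zfp263. For Ifng the most alike were Bccip (0.95), Aimp1 (0.95) and Krt20 (0.95), the last a keratin of differentiated epithelial cells. For Lta they were Mmaa (0.96), Rnase6 (0.96) and Irak3 (0.95), for Tnf Cox6a2 (0.98), Spint2 (0.92) and Unc93b1 (0.91), and for Il2 Rbbp8 (0.95), Kbtbd7 (0.95) and Map4k5 (0.92).

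The receptors through which these cytokines act lay on both sides of 0. Of 12 receptor genes 0 were called and 7 lay below 0 (10 without PBS replicate 1); 1 had an unadjusted p under 0.05 and was higher in Ex4, 1 was lower, and the median log2 fold change was -0.18, against 0.02 over all tested genes. Ltbr, the receptor of the lymphotoxin complex, was at 2.91 ± 1.13 CPM in Ex4 and 5.85 ± 1.48 CPM in PBS (log2 fold change -1.01, edgeR adjusted p = 0.556). Ifngr1, the ligand-binding chain of the interferon-gamma receptor, was at 629 ± 98.2 CPM in Ex4 and 469.7 ± 127 CPM in PBS (log2 fold change 0.42, edgeR adjusted p = 0.607). Il2rg, the shared gamma chain of the IL-2 receptor, had a log2 fold change of -0.36, while Tnfrsf1a and Tnfrsf1b, the receptors of TNF and soluble lymphotoxin-alpha, had 0.02 and 0.01. In this list and those of inducing factors, decay factors, shedding, targets and other cytokines, limma-voom also made 0 calls, and DESeq2 made none but Zfp36.

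Factors that switch the cytokine genes on gave 0 calls of 21, with 1 gene at an unadjusted p under 0.05 in each direction and a median log2 fold change of 0.06. Without PBS replicate 1, 1 gene was higher and 3 were lower at that p, with a median of -0.04. Il18rap, the accessory chain of the IL-18 receptor, was at 39.7 ± 10.7 CPM in Ex4 and 22.8 ± 8.27 CPM in PBS (log2 fold change 0.79, edgeR adjusted p = 0.477). Runx3, a transcription factor of CD8+ T cells, was at 140.3 ± 26.3 CPM in Ex4 and 192 ± 42.2 CPM in PBS (log2 fold change -0.45, edgeR adjusted p = 0.556), and Il12rb1, a chain of the IL-12 receptor, had -0.52. Without PBS replicate 1, Il12rb1 had -0.27. Tbx21, which encodes the Ifng activator T-bet, was at 72.6 CPM in Ex4 and 73.8 CPM in PBS. Of the cytokines that induce Ifng, 7 of 8 could be tested and 0 were called; Il1b had the smallest p (log2 fold change 0.65, edgeR adjusted p = 0.486), and Ebi3 and Il18 had 0.54 and -0.44.

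Among the factors that bind AU-rich elements and other decay signals of cytokine mRNAs, 0 of 10 were called and 1 had an unadjusted p under 0.05. That gene was Zfp36, whose product tristetraprolin promotes decay of Tnf and Csf2 mRNA. It was at 143, 109, 127 and 122 CPM in Ex4 replicates 1 to 4, against 70.1, 81.4, 89.3 and 95.4 CPM in PBS replicates 1 to 4. The lowest Ex4 library was above the highest PBS library, with means of 125 ± 14.1 CPM in Ex4 and 84.0 ± 10.9 CPM in PBS. The log2 fold change was 0.57 (SE 0.14, edgeR adjusted p = 0.310), and the DESeq2 adjusted p was 0.0287, so that whether Zfp36 passes depends on the test. Rc3h1, which encodes roquin-1, and Zc3h12d had log2 fold changes of -0.26 and 0.24. The 4 genes of TNF shedding and translation gave 0 calls and 0 genes with an unadjusted p under 0.05; Adam17, the protease that releases TNF, had a log2 fold change of -0.15, Mapkapk2 0.16 and Frmd8 0.14.

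Of 24 targets of interferon-gamma 0 were called, 1 had an unadjusted p under 0.05, and the median log2 fold change was -0.11. A value below 0 was found for 17 of 24 with edgeR, against 47.1% of all tested genes with edgeR. It was found for 18 with DESeq2, 15 with limma-voom and 14 with edgeR without PBS replicate 1. Without that library 0 of the 24 had an unadjusted edgeR p under 0.05. Cxcl10, a chemokine that draws CXCR3+ T cells, was at 34.2, 72.2, 71.7 and 41.3 CPM in Ex4 replicates 1 to 4, against 130.2, 60.9, 76.5 and 100.6 CPM in PBS replicates 1 to 4. Only PBS replicate 2 lay below Ex4 replicates 2 and 3, and the log2 fold change was -0.74 (SE 0.29, edgeR adjusted p = 0.564). Psmb8, an immunoproteasome subunit, had -0.26 and Gbp5, a guanylate-binding GTPase, -0.35.

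Targets of TNF and NF-kappaB gave 0 calls of 14 and a median of 0.04, with 1 gene at an unadjusted p under 0.05. This was Icam1, an adhesion molecule, at 246 ± 56.6 CPM in Ex4 and 357 ± 40.5 CPM in PBS (log2 fold change -0.54, edgeR adjusted p = 0.432); the chemokine gene Cxcl2 and the NF-kappaB cofactor gene Bcl3 had 0.62 and -0.22. Targets of STAT5, the factor that IL-2 and GM-CSF activate, gave 0 calls of 9, a median of -0.03 and 1 gene at an unadjusted p under 0.05 in each direction. Socs3, a feedback inhibitor of cytokine receptors, had a log2 fold change of 0.88 and the survival gene Bcl2 one of -0.54, with edgeR adjusted p of 0.614 and 0.595, and the cell-cycle gene Ccnd2 had -0.27. Without PBS replicate 1, Socs3 had 0.59, Bcl2 -0.25 and Ccnd2 -0.26.

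Other cytokines of activated T cells spread in both directions around the 6 members. Of 16 listed, 13 could be tested, 0 were called, 2 had an unadjusted p under 0.05 and were higher in Ex4, 3 were lower, and 10 lay above 0. Il17a, the signature cytokine of type 17 cells, was at 3.72, 1.24, 8.59 and 2.12 CPM in Ex4 replicates 1 to 4, against 0.289, 0.705, 0.447 and 0.450 CPM in PBS replicates 1 to 4 (log2 fold change 3.03, SE 0.65, edgeR adjusted p = 0.291). All Ex4 libraries lay above all PBS libraries for this low transcript. Tnfsf14, which encodes LIGHT, another ligand of the lymphotoxin-beta receptor, was at 16.8 ± 4.08 CPM in Ex4 and 28.2 ± 4.56 CPM in PBS without overlap (log2 fold change -0.74, edgeR adjusted p = 0.370). Ccl1, a chemokine of activated T cells, was at 3.21 ± 0.562 CPM in Ex4 and 7.77 ± 4.89 CPM in PBS without overlap (log2 fold change -1.27, edgeR adjusted p = 0.433). As for Ltb and Csf2, PBS replicate 1 held the highest level of Ccl1, and without it the log2 fold change of Ccl1 was -0.75, with an unadjusted edgeR p of 0.0687. Il22 was at 279 ± 74.2 CPM in Ex4 and 112 ± 62.0 CPM in PBS without overlap. Its log2 fold change was 1.32 (edgeR adjusted p = 0.499), and that of Xcl1 was -0.71 (edgeR adjusted p = 0.543). Without PBS replicate 1 the log2 fold changes of Il22 and Xcl1 were 1.03 and -0.56. Ltb, Csf2 and Ifng thus lay on the same side as Tnfsf14, Ccl1 and Xcl1, and on the other side from Il17a and Il22. Tnf, Lta and Il2 had intervals that held 0, and Il2 turned direction when some single libraries were left out. None of these differences passed the adjusted threshold.

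**Figure D5:**
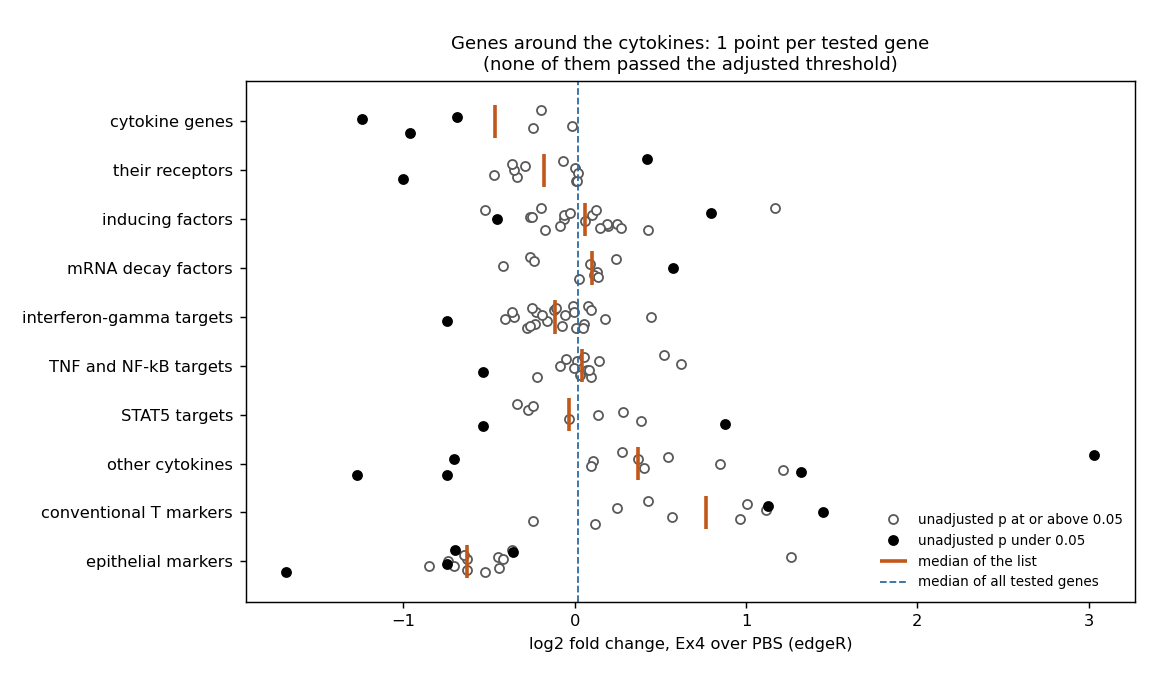
Log2 fold change of Ex4 over PBS (x axis) for each tested gene of the cytokine list, the lists around it and 2 lists of other cells (rows), with the median of each list and of all tested genes. The cytokine genes have a median of -0.46, their receptors -0.18 and the interferon-gamma targets -0.11, while markers of conventional T cells lie mostly above 0 and epithelial markers mostly below 0.

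Markers of other cells lay on both sides of 0. Of 10 markers of conventional T cells 9 lay above 0, 2 had an unadjusted p under 0.05 and 0 were called; they summed to 236 to 399 CPM in Ex4 and 90.9 to 282 CPM in PBS, and none was at 0 in all libraries. Icos, an activation receptor of such cells, averaged 152 CPM in Ex4 and 55.7 CPM in PBS (log2 fold change 1.45, edgeR adjusted p = 0.636). Themis, a signalling factor of T cell development, had a log2 fold change of 1.13 and Foxp3, the factor of regulatory T cells, one of 1.01. Of 16 epithelial markers 15 lay below 0, 4 of them with an unadjusted p under 0.05 and 0 called; they summed to 311 to 717 CPM in Ex4 and 626 to 1412 CPM in PBS. Epcam was at 126 ± 19.9 CPM in Ex4 and 161 ± 16.4 CPM in PBS without overlap (log2 fold change -0.36, edgeR adjusted p = 0.557), while the cadherin gene Cdh1 and the enterocyte phosphatase gene Alpi had -0.70 and -1.69. Without PBS replicate 1, Epcam had -0.30, Cdh1 -0.39 and Alpi -1.64, and 6 of the 16 were lower with an unadjusted edgeR p under 0.05. PBS replicate 3, the library with the most epithelial transcripts, was also the highest in Ifng and Tnf. Myeloid markers summed to 134 to 222 CPM in Ex4 and 139.7 to 274 CPM in PBS, those of neutrophils and mast cells to 36.6 to 64.0 CPM in Ex4 and 27.8 to 81.4 CPM in PBS, and stromal markers to 48.2 to 65.5 CPM in Ex4 and 57.1 to 97.2 CPM in PBS. In these lists and that of B and plasma cells 0 genes were called by edgeR, DESeq2 or limma-voom. Unadjusted p under 0.05 was found for 1 myeloid gene higher in Ex4 and 2 lower, 1 stromal gene lower, and 0 genes of the other 2 lists. The genes of smallest p were Cd68, Xcr1 and Zbtb46 (myeloid; log2 fold changes 0.56, -0.65 and -1.32), Mcpt1, S100a9 and Cpa3 (-0.45, 0.65 and -0.61), Pecam1, Cdh5 and Des (stromal; -0.76, 0.89 and 0.73) and Cd22, Blk and Cd79b (B cells; -0.31, -0.26 and -0.12). Without PBS replicate 1, Cd68 had 0.67, Xcr1 -0.74 and Zbtb46 -0.67. The part of these cells in the cytokine levels was not tested.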

How the data were processed

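Gene counts of gut IELs from 4 Ex4 and 4 PBS mice were used. RNA was extracted with TRIzol and libraries were made with a strand-specific mRNA kit, per the labels' protocols. The submitters' processing notes name STAR 2.7.9a, DESeq2 and the build mm10 but not what each was used for. The deposited values are raw gene counts in whole numbers, which the authors had not normalized; how reads were assigned to genes is not given in the sources used here. Every pair of replicates differed beyond sampling noise (mean chi-square per gene 20.6 to 77.1), so all 8 libraries were counted separately.

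Counts were tested with edgeR 4.0.16 in R 4.3.3 (filterByExpr, TMM, robust quasi-likelihood F test, Benjamini-Hochberg adjustment over 14691 genes, threshold 0.05), after a check on simulated data. In that check edgeR recovered 13.6% of planted 1.5-fold changes, 51.5% of 2-fold and 65.6% of 3-fold changes. A gene that was not called may therefore still differ. SEs and 95% intervals were back-calculated from each log2 fold change and its F statistic. CPM uses TMM library sizes; log2 CPM adds a prior count of 2. Single values were compared by exact permutation over 70 assignments and correlations over 40320 orders. Exon lengths, coordinates and 3′ UTRs are from GENCODE (GRCm38), with 24366 symbols matched; promoters are from RefSeq GRCm38.p6, and all 6 genes matched. Alternatives used DESeq2 1.42.0, limma-voom (limma 3.58.1), other scalings and filters, a replicate block and each library left out. Python 3.11.15 drew the figures.

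Named genes were the 6 members, the 3 genes of smallest p per list, the 3 most alike genes per member, Glp1r, Zfp36, Cd3e and the called genes. Tbx21, Tnfrsf1a, Tnfrsf1b, Il3, Gzma, Itgae, Gzmb, Cd7, Klrb1c, Kit, Il22 and Xcl1 were named outside this rule, after their values were seen. Members and lists were chosen with earlier results of these data known. Il2ra, Eomes and Cd28 each stand in 2 lists.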

Additional observations from a re-analysis of the deposited data

Results flagged for a closer look

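The 6 cytokine genes, 51 other named genes, the Ltb to Lta ratio and the library totals were checked in each group of 4 libraries. A single library far from the other 3 was sought by Dixon's test at the 95% level. The 51 were Cd3e and the 3 genes of smallest p per list, where no library was at 0. Other named genes were not checked, among them Klrb1c, Kit, Glp1r and the most alike genes. Klrb1c was at 102 CPM in PBS replicate 1 and at 9.34 CPM in the next PBS library. The checks made 118 groups, and in 4 of them a library stood apart, where chance gives about 1 in 20, or 5.9 groups. The 51 genes were picked by p in these same data and the groups share libraries, so the chance figure is only a guide. Ebi3 was low in Ex4 replicate 3, at 0.57 log2 CPM with the nearest library at 1.70. Il18 was high in PBS replicate 1, at 1.75 log2 CPM with the nearest at 0.88. Bcl2 was high in the same library, at 10.35 log2 CPM with the nearest at 9.46, and so was Cdh1, at 5.81 log2 CPM with the nearest at 4.88. None of the 6 cytokine genes was set apart by this limit, Ltb and Csf2 in PBS replicate 1 included.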

How the results depend on the processing

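The 6 cytokine genes were refitted under 17 alternatives, 102 fits in all, of which 99 gave a log2 fold change below 0 and 0 of the 100 fits with an adjusted p made a call; DESeq2 gave no adjusted p for Tnf and Il2. Log2 fold changes lay between -0.91 and -0.54 for Ifng, -1.18 and -0.44 for Csf2, -1.50 and -0.67 for Ltb, -0.55 and -0.09 for Tnf and -0.46 and -0.06 for Lta. Il2 lay between -0.51 and 0.29 with 1 library left out and turned positive without Ex4 replicate 2 (0.21), Ex4 replicate 4 (0.09) or PBS replicate 3 (0.29). Its mean log2 CPM difference lay between -0.43 and 0.20, positive without Ex4 replicate 2 (0.20) or PBS replicate 3 (0.17). The cause was not tested.

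Genes called over the whole table numbered 2 with edgeR, 83 with DESeq2 (48 higher and 35 lower in Ex4), 1 with limma-voom, 8 without a filter on low counts and 1 with the replicate block, and between 1 and 14 with 1 library left out, the 14 without PBS replicate 2. Member pairs past an adjusted p of 0.05 numbered 3, and between 0 and 5 with 1 library left out, 0 without Ex4 replicate 4 or PBS replicate 3 and 5 without PBS replicate 1. Differences in the log2 ratio lay between -1.02 and -0.58 for Ltb to Lta (exact permutation p 0.0286 to 0.0857) and between -0.67 and -0.31 for Csf2 to Lta (exact permutation p 0.0286 to 0.114); with 3 libraries in a group the exact test cannot go below 0.0286. The ratios, their alternatives, the other scalings of single pairs and the gene lists without PBS replicate 1 were chosen after seeing the data.

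Same-numbered libraries correlated between -0.24 and 0.14 in their deviations from the group means, and not every library correlated best with its own number, so the numbers are not shown to pair mice. With the replicate block the log2 fold change was -0.68 for Ifng (edgeR adjusted p = 0.391), -1.08 for Ltb and -0.81 for Csf2, and no cytokine gene was called.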
